A study of Rattus norvegicus with 2 samples.

Results

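The genes described here are the chemokines and chemokine receptors of cultured neonatal rat ventricular myocytes, contractile cells prepared from the ventricles of rat pups. They were chosen by name, as every gene whose symbol in the platform annotation is that of a CC, CXC, CX3C or XC chemokine or of one of their receptors. This gave 50 of 16592 named genes, 34 ligands and 16 receptors, each with 1 probe set. The study set 2 arrays side by side. The first holds RNA of cells from pups of 1 to 2 days, transduced with an adenovirus expressing a hairpin (shRNA) that targets Mef2d, a muscle transcription factor. The second holds RNA of cells of the same kind and age given an adenoviral shRNA that targets lacZ, a bacterial sequence used as a negative control, so cells of both conditions carry an adenoviral vector and express a hairpin. RNA was harvested 3 days after transduction. The design text describes each array as a pool of 6 biological replicates, whereas the extraction protocol speaks of 3 per condition and of myotubes. The labels name 1 adenovirus for each target.

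Each condition therefore has 1 array. No value below has a replicate error, no test of a difference can be made, and every difference describes these 2 arrays. Levels are log2 values after robust multi-array averaging (RMA), and a difference is the value of the array labelled Mef2d shRNA less that of the array labelled lacZ shRNA. Mef2d itself measured 8.94 on the Mef2d-labelled array and 8.22 on the lacZ-labelled array, a difference of 0.71, which goes against the label. For this reason the arrays are named only by their labels, and all directions below depend on those labels being right. All 15 cardiomyocyte markers passed the level filter described below, with a mean level of 11.37 on the Mef2d-labelled array and 11.25 on the lacZ-labelled array.

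Chemokines are small secreted proteins that guide leukocytes along a concentration gradient. They are classed by the spacing of their first cysteines (CC, CXC, CX3C and XC) and act through G protein-coupled receptors on the cells they attract. Many inflammatory chemokines are switched on through the transcription factor NF-kB or by interferons, while others, such as Cxcl12, are made constitutively and hold or place cells in tissues. In heart preparations, chemokines are known products of cardiac fibroblasts and macrophages as well as of stressed myocytes. In bulk RNA, fewer cells of a type and less RNA per cell cannot be told apart.

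The sequences just before the start sites are shown first, because NF-kB is a known regulator of the inflammatory members. Ccl20, the member with the largest difference, holds a match to the NF-kB consensus, and Cxcl12, printed beside it, does not. A part of NF-kB in these values was not tested. The promoters come from RefSeq (build GRCr8), run from 250 bases before to 50 bases after each start, and were present for 38 of the 50 members. The NF-kB consensus was searched on both strands. It was found in 9 of the 38 promoters (23.7%), taken as 1 per member, and in 7.51% of all 33469 promoters of the same length. The 33469 were not limited to 1 per gene. Since the consensus is nearly its own reverse, a site can match on both strands one base apart, and such matches overlap. The 9 genes were Ccl20, Ccl7, Ccl9, Cxcl1, Cxcl2, Cxcl6, Cxcl10, Cxcl11 and the receptor gene Ccr3. For Ccl20 and Cxcl12 the 250 bases before the start are printed 5′ to 3′, with NF-kB consensus matches in capitals.
Ccl20, chr9:91836909-91837158, plus strand: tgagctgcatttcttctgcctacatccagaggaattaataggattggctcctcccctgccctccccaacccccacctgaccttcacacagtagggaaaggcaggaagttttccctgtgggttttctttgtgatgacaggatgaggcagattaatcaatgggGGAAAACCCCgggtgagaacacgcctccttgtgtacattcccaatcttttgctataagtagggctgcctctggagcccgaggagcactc
Cxcl12, chr4:152060531-152060780, plus strand: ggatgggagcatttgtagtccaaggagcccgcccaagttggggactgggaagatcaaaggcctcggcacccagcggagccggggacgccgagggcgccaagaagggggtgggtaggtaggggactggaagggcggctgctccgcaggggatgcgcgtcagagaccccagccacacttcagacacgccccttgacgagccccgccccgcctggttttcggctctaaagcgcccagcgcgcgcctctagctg
The Ccl20 match begins 89 bases before the start. The printed Cxcl12 stretch holds no match to these letters, which says nothing about the factor itself. For 5 other ligands with a match, 60 bases around the match nearest the start are printed in the same way, so that the site can be compared with that of Ccl20.
Cxcl1, chr14:17479370-17479429, minus strand: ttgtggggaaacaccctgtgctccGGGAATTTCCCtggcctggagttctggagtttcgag
Cxcl2, chr14:17467294-17467353, minus strand: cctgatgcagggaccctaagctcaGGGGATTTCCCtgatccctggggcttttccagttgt
Cxcl6, chr14:17596470-17596529, minus strand: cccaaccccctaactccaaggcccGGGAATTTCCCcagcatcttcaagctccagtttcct
Ccl7, chr10:67514011-67514070, plus strand: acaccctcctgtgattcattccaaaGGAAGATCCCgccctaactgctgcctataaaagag
Cxcl10, chr14:15988914-15988973, plus strand: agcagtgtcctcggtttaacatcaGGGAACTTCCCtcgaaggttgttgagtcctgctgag
In Cxcl1, Cxcl2 and Cxcl6, which encode neutrophil attractants, the matches begin 84, 74 and 88 bases before the start, near the position of the Ccl20 match. The differences of the 9 genes with a match ran from -1.20 to 0.28, and 6 of them were below 0, against 16 of the 29 members whose promoters hold no match. Cxcl2, at 0.28, and Cxcl6 and Ccr3 had low levels and did not pass the level filter described below. The 6 that passed ran from -1.20 to 0.08, with 4 below 0. Of all named genes, 53.3% were below 0, and of all genes past the filter 51.7%. These are counts of few genes, and a link between a match and the difference was not tested. The core of the interferon-stimulated response element (GAAA, any 2 bases, then GAAA, on either strand) was found in the promoters of Ccl19 and Cxcl10 and in 3.92% of all promoters. The MEF2 consensus was found in 1 member, Ccl9, beginning 39 bases into the transcribed part, and in 3.29% of all promoters. A match is a description of letters and not evidence of binding.

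To keep genes near background out of the counts, genes whose mean over both arrays lay under the 30th percentile of all named genes (log2 4.85) were set apart. Of the 50 members, 26 passed, 19 ligands and 7 receptors, and 24 did not. Among the 26, 2 were at least 1.5-fold lower on the Mef2d-labelled array (7.69%), where 0.534% of all 11614 genes past the filter were. None was at least 1.5-fold higher, where 0.844% of all genes were. Of the 26, 17 were below 0 (65.4%, against 51.7% of all genes), with a median difference of -0.07 against -0.01 for all genes. The 19 ligands had a median of -0.13 with 13 below 0, and the 7 receptors a median of -0.01 with 4 below 0. Without Ccl20 and Cxcl12 the remaining 24 members past the filter had a median of -0.06, with 15 below 0. The direction depended on the level filter: once the filter was raised to the median of all named genes, 8 members were left, of which 3 had a negative difference and none was 1.5-fold lower, with a median of 0.027. Of all 8296 genes past that raised filter, 49.4% were below 0 and 30 were at least 1.5-fold lower. The receptor median was near 0 and turned positive after quantile normalization (0.019) and after a loess correction (0.008). Under each of these 2 scalings the count of members below 0 fell from 17 to 15.

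Over all 50 members, whether or not they passed, 32 were below 0, against 53.3% of all named genes. At least 1.5-fold lower were 3 of them (Ccl20, Cxcl12 and Cxcl13), where 0.536% of all named genes were, and none was as much higher, where 0.735% were. The 24 members that did not pass had levels between 2.90 and 4.95, differences from -0.73 to 0.37 and a median difference of -0.03, with 15 below 0. RMA values carry no detection call, so none of these 24 can be told from background here.

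**Figure D1:**
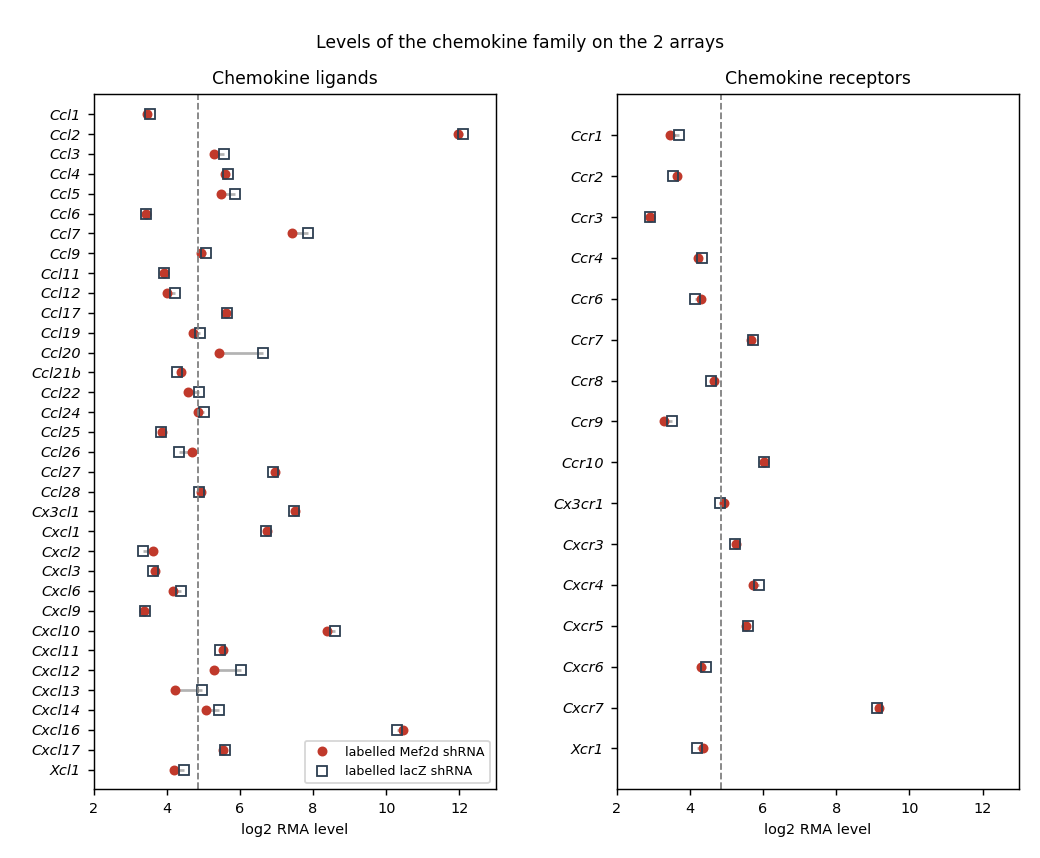
Log2 RMA level (x axis) of each of the 34 chemokine ligands (left) and 16 receptors (right) on the Mef2d-labelled array (filled circles) and the lacZ-labelled array (open squares), with a grey line joining both values of a gene and the level filter of 4.85 as a dashed line. Ccl20, Cxcl12 and Cxcl13 have the widest gaps, and the receptors lie close together on both arrays.

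Ccl20, a CC chemokine that draws dendritic cells and lymphocytes through its receptor Ccr6, had the largest difference of the family. Its level was 5.42 on the Mef2d-labelled array and 6.63 on the lacZ-labelled array. The difference of -1.20 corresponds to 2.30-fold lower, and 3 of 11614 genes, with Ccl20 among them, were at least as low. Measured against the scatter of genes of similar level (a robust SD of 0.21, which is not a replicate error), Ccl20 stood at -5.75 robust SDs from their centre. Its receptor gene, Ccr6, had levels of 4.31 on the Mef2d-labelled array and 4.14 on the lacZ-labelled array, both under the filter.

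All 4 constitutive CXC ligands were below 0, where 53.3% of all named genes were, and 3 of the 4 passed the filter. The 2 largest differences after that of Ccl20 were among these ligands. Cxcl12, which holds stem cells and lymphocytes in tissues and acts through Cxcr4, had a level of 5.28 on the Mef2d-labelled array and 6.03 on the lacZ-labelled array. The difference of -0.75 is 1.68-fold lower, at -3.63 robust SDs on the same measure, and 23 genes were at least as low. Cxcl13, which guides B cells into follicles through Cxcr5, had a similar difference at a lower level, with 4.22 on the Mef2d-labelled array and 4.95 on the lacZ-labelled array (-0.73, 1.66-fold lower). Its mean lay under the filter, so its fold is less certain, and it was not among the 2 genes counted. Cxcl14, made by epithelia and fibroblasts, had levels of 5.07 on the Mef2d-labelled array and 5.42 on the lacZ-labelled array (-0.35). For Cxcl17, a mucosal chemokine, the difference was -0.06.

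The receptors of Cxcl12 differed less than the ligand. Cxcr4, through which Cxcl12 signals, had levels of 5.72 on the Mef2d-labelled array and 5.90 on the lacZ-labelled array (-0.18). Cxcr7, now named Ackr3, binds and clears Cxcl12 without G protein signalling, and its levels were 9.18 on the Mef2d-labelled array and 9.12 on the lacZ-labelled array (0.06). Cxcr5, the receptor of Cxcl13, had a difference of -0.07.

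The monocyte attractants Ccl2, Ccl7 and Ccl12 were below 0, where 53.3% of all named genes were, without reaching 1.5-fold. Ccl7 had a level of 7.44 on the Mef2d-labelled array and 7.86 on the lacZ-labelled array, a difference of -0.43 (1.34-fold lower) and 197 genes at least as low. Ccl2, the main monocyte attractant, had levels of 11.97 on the Mef2d-labelled array and 12.11 on the lacZ-labelled array (-0.13). Ccl12, known in mouse as a monocyte attractant, did not pass the filter and had a difference of -0.22. Their shared receptor gene, Ccr2, was under the filter on both arrays, with levels of 3.65 on the Mef2d-labelled array and 3.54 on the lacZ-labelled array.

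The macrophage inflammatory and related CC ligands were also below 0, by small amounts, where 53.3% of all named genes were below 0. Of these 6 ligands, 4 passed the filter. Ccl5, which attracts T cells and monocytes, had levels of 5.48 on the Mef2d-labelled array and 5.85 on the lacZ-labelled array (-0.37). Ccl3, a macrophage inflammatory protein, had levels of 5.30 on the Mef2d-labelled array and 5.58 on the lacZ-labelled array (-0.28). Ccl9, known from mouse as a macrophage product, and Ccl4, also a macrophage inflammatory protein, differed by -0.15 and -0.08. Ccl1, a ligand of Ccr8, and Ccl6, a rodent ligand of Ccr1, did not pass the filter and differed by -0.08 and -0.02.

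In GRCr8 these CC ligands lie in 2 runs on chromosome 10, where a run means members with at most 10 protein-coding genes between neighbours. All 5 genes of the run Ccl2, Ccl7, Ccl11, Ccl12 and Ccl1 were below 0, from -0.43 to -0.003, as were all 5 of the run Ccl5, Ccl9, Ccl6, Ccl3 and Ccl4, from -0.37 to -0.02. These counts hold for the values as deposited, since Ccl11 and Ccl6 lie near 0 and turned positive under at least 1 other scaling. Only 2 genes of the first run and 4 of the second passed the level filter. Of all named genes, 53.3% were below 0. Neighbouring copies are related in sequence, and cross-hybridisation between them was not tested. The CXC run Cxcl2, Cxcl1, Cxcl3 and Cxcl6 on chromosome 14 had 1 of 4 genes below 0, and only Cxcl1 passed the filter. The run of 6 receptor genes on chromosome 8 (Ccr9, Cxcr6, Xcr1, Ccr1, Ccr3 and Ccr2) held no gene past the filter. The members formed 9 runs, and the others were not uniformly below 0. Cx3cr1 and Ccr8 were both above 0. Below 0 were 1 of 2 genes in Ccl24 and Ccl26, and 1 of 3 in Ccl27, Ccl19 and Ccl21b. The run Cxcl11, Cxcl10 and Cxcl9 had 2 of 3 below 0, as did Ccl17, Cx3cl1 and Ccl22.

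**Figure D2:**
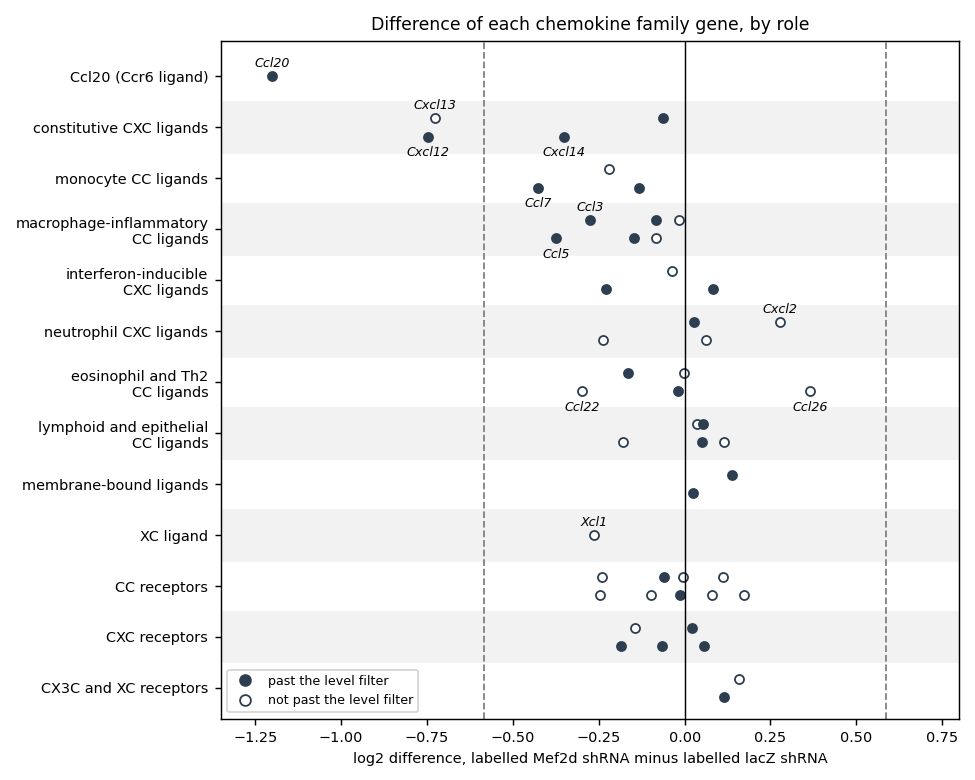
Log2 difference (x axis, Mef2d-labelled minus lacZ-labelled array) of each of the 50 genes, grouped by role, with filled points for genes past the level filter, open points for the others and dashed lines at 1.5-fold. Ccl20 and Cxcl12 are the filled points beyond the lower line, and Cxcl13 is the open one.

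The interferon-inducible ligands, which attract activated T cells through Cxcr3, did not share a direction. Cxcl10 had levels of 8.37 on the Mef2d-labelled array and 8.60 on the lacZ-labelled array (-0.23), and Cxcl11 had 5.54 on the Mef2d-labelled array and 5.46 on the lacZ-labelled array (0.08). Cxcl9 was under the filter on both arrays and differed by -0.04. Cxcr3 differed by 0.02.

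Among the neutrophil attractants, which act through Cxcr2, only Cxcl1 passed the filter. Its levels were 6.73 on the Mef2d-labelled array and 6.71 on the lacZ-labelled array, a difference of 0.03. The level of Cxcl2 was 3.63 on the Mef2d-labelled array and 3.35 on the lacZ-labelled array, that of Cxcl6 was 4.16 on the Mef2d-labelled array and 4.39 on the lacZ-labelled array, and Cxcl3 differed by 0.06.

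The membrane-bound ligands, which can tether leukocytes as well as attract them, had small positive differences. Cxcl16, which also acts as a scavenger receptor for oxidised lipids, had levels of 10.44 on the Mef2d-labelled array and 10.31 on the lacZ-labelled array (0.14, the highest difference among the members past the filter). Cx3cl1, or fractalkine, had levels of 7.52 on the Mef2d-labelled array and 7.49 on the lacZ-labelled array (0.02). Their receptors Cxcr6 and Cx3cr1 differed by -0.14 and 0.11, and Cxcr6 did not pass the filter.

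The remaining ligands belong to lymphoid, epithelial and eosinophil biology. Ccl27 and Ccl28, both ligands of Ccr10 in skin and mucosa, passed the filter with a difference of 0.05 each, and Ccr10 differed by -0.01. Ccl19 (-0.18), Ccl21b (0.11) and Ccl25 (0.04), which position T cells in lymphoid organs and gut, did not pass. In the eosinophil and Th2 group, Ccl24 (-0.16) and Ccl17 (-0.02) passed, while Ccl22 (-0.30), Ccl11 (-0.003) and Ccl26 (0.37) did not. The value for Ccl26 was the highest of the 50 members, from levels of 4.69 on the Mef2d-labelled array and 4.32 on the lacZ-labelled array. Xcl1, the lymphocyte attractant of the XC class, differed by -0.26 under the filter.

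No receptor reached 1.5-fold in either direction. The 9 CC receptor genes ran from -0.25 (Ccr1) to 0.17 (Ccr6), and 2 of them, Ccr7 (-0.06), which brings dendritic cells to lymph nodes, and Ccr10, passed the filter. Under the filter were also Ccr3 (-0.004), the eosinophil receptor, Ccr4 (-0.10), Ccr8 (0.08) and Ccr9 (-0.24), the receptors of T cell subsets, and Xcr1 (0.16), the receptor of Xcl1. The genes of a pair of CXC receptors for neutrophil attractants carry older names in the platform annotation and fall outside the name rule. Through their gene identifiers they are Cxcr2 (3.37 on the Mef2d-labelled array and 3.41 on the lacZ-labelled array) and Cxcr1 (5.08 on the Mef2d-labelled array and 4.81 on the lacZ-labelled array), with differences of -0.03 and 0.27.

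**Figure D3:**
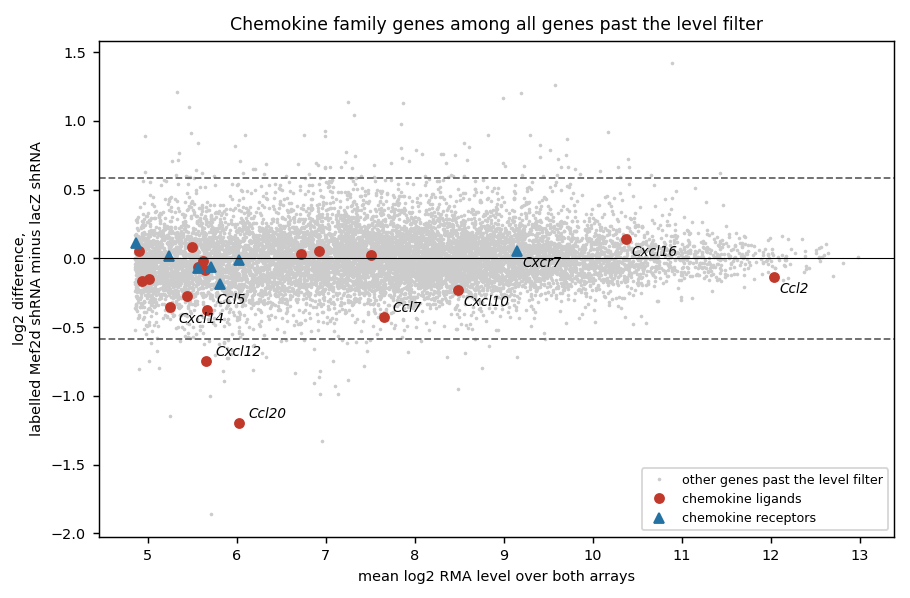
Log2 difference (y axis, Mef2d-labelled minus lacZ-labelled array) against the mean log2 RMA level over both arrays (x axis) for the genes past the level filter, with the 19 ligands as red circles, the 7 receptors as blue triangles, other genes in grey and 1.5-fold as dashed lines. Ccl20 (-1.20) and Cxcl12 (-0.75) lie below the lower line. At higher levels, Ccl2 (-0.13), Cxcl16 (0.14) and Cxcr7 (0.06) lie nearer 0, and Ccl7 (-0.43) and Cxcl10 (-0.23) lie further below it.

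Genes that work with chemokines were compared through lists, each with its count and median beside the 51.7% below 0 and median of -0.01 of all genes past the filter. Among 9 atypical receptors and other chemotactic genes, 3 had a negative difference, the median was 0.04 and no gene reached 1.5-fold. The lowest were Pf4, the platelet CXC chemokine (5.35 on the Mef2d-labelled array, 5.89 on the lacZ-labelled array, -0.54), and Mif, a macrophage factor (-0.11). The highest were Ccrl1, now Ackr4, a scavenger of Ccl19 and Ccl21 (8.80 on the Mef2d-labelled array, 8.33 on the lacZ-labelled array, 0.47), and Ccrl2 (0.24).

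Signalling genes downstream of the receptors showed no common direction, with 10 of 20 below 0 and a median of -0.001. Rac2, the small GTPase of leukocyte migration, was the 1 gene past 1.5-fold, with levels of 6.44 on the Mef2d-labelled array and 7.43 on the lacZ-labelled array (-0.99, 1.98-fold lower). The inhibitory G protein gene Gnai3 followed at -0.38, and the highest were the kinase genes Ptk2b (0.47) and Grk5 (0.31). No NF-kB subunit or regulator reached 1.5-fold, with 13 of 18 below 0 and a median of -0.05. The lowest of these were Bcl3 (-0.30) and Nfkbia, the inhibitor that NF-kB itself induces (-0.30), and the highest were Tnip1 (0.09) and the subunit gene Rela (0.08).

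Upstream, 11 of 19 cytokine, cytokine receptor and pattern receptor genes were below 0, with a median of -0.07 and none past 1.5-fold. Tlr2, a receptor for bacterial lipoproteins (-0.39), and Il1rap, the interleukin 1 receptor partner (-0.34), were lowest, and Mavs (0.29) and Tnf (0.27) highest. Of 8 interferon-pathway transcription factors, 7 were below 0, with a median of -0.13. Irf7, the amplifier of interferon induction, had levels of 6.85 on the Mef2d-labelled array and 7.42 on the lacZ-labelled array (-0.56), Irf9 differed by -0.39, and Irf5 (0.11) and Irf2 (-0.003) were highest.

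Adhesion and matrix partners had 7 of 11 below 0 and a median of -0.07. Mmp12, a macrophage elastase that also cleaves chemokines, was 1.64-fold lower (-0.72), and the leukocyte adhesion gene Vcam1 differed by -0.48. Sdc4 (0.21) and Ext1 (0.11), which belong to heparan sulfate biology, were highest.

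Leukocyte markers, like the ligands, were more often below 0 than above. Of 24 measured macrophage and leukocyte markers 14 passed the filter, 9 of them were below 0, the median was -0.12, and their mean level was 6.72 on the Mef2d-labelled array and 6.82 on the lacZ-labelled array. Lyz2 and Ptprc were lowest (-0.34 each) and Tyrobp (0.24) and C1qb (0.07) highest. The 10 that did not pass the filter were of several kinds. They were Itgam, Aif1, Cd74, Cd163 and C1qc, the T cell markers Cd3e and Cd3g, and the neutrophil markers S100a8, S100a9 and Mpo. The B cell marker Cd79a passed (0.03). Fibroblast markers, from cells known to make Cxcl12, had 8 of 12 below 0 and a median of -0.09, with a mean level of 9.86 on the Mef2d-labelled array and 9.96 on the lacZ-labelled array. Col6a3 (-0.39) and Pdgfra (-0.23) were lowest and Dcn (0.10) and Thy1 (0.05) highest. The part of these cells in the chemokine values was not tested.

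Smooth muscle and pericyte markers had 5 of 8 below 0 and a median of -0.06, from Lmod1 (-0.25) and Tagln (-0.22) to Pdgfrb (0.06) and Rgs5 (0.08). Of 8 endothelial markers 3 passed, Sox17 (-0.06), Flt1 (0) and Tek (0.10), with a median of 0. Of the 5 that did not pass, 4 were below 0, with Pecam1 lowest at -0.44, and the median over all 8 was -0.12. Among the 15 cardiomyocyte markers 6 were below 0, the median was 0.06, and Casq2, the calcium store protein, was 2.67-fold higher. Myh7 differed by 0.39, Mybpc3 by -0.15 and Myh6 by -0.46.

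**Figure D4:**
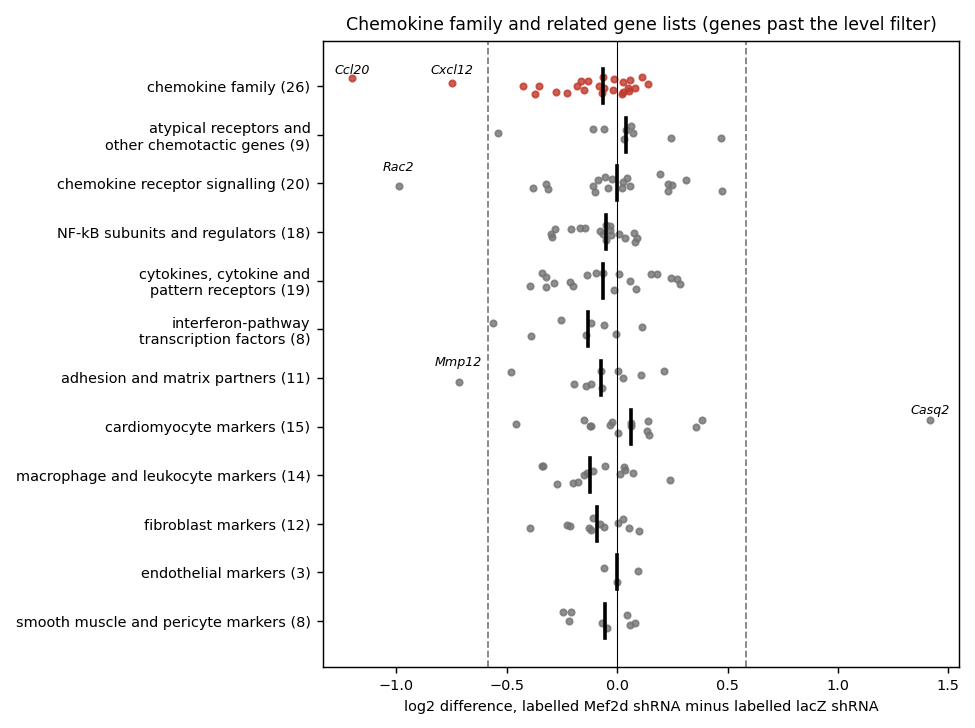
Log2 difference (x axis, Mef2d-labelled minus lacZ-labelled array) of each gene past the level filter in the chemokine family and in the comparison lists, with the number of genes in brackets, a black bar at each list's median and dashed lines at 1.5-fold; the vertical scatter within a row carries no value. The genes past a dashed line are Ccl20, Cxcl12, Rac2 and Mmp12 on the lower side and Casq2 on the higher side.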

How the data were processed

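Gene expression was measured on 2 one-colour Affymetrix arrays, 1 per condition. The authors deposited log2 values from RMA and affy 1.36.1, per the submitters' processing notes. How the probe sets were defined, and on which build, the sources used here do not state. The table holds 19239 probe sets, of which 16592 have 1 gene symbol, none has several and 2647 are unnamed here. Array medians were 6.28 (labelled Mef2d shRNA) and 6.29 (labelled lacZ shRNA). The number of arrays limits the precision, and RMA compresses differences of dim probe sets.

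Differences were taken without further normalization (Python 3.11.15). Genes under the 30th percentile of the mean level were set apart, and 1.5-fold (0.58 on the log2 scale) was the threshold. The robust SD came from 20 bins of level and ran from 0.11 to 0.21. The threshold step was tested on simulated data with the same scatter at every level. That run checked the arithmetic and not the differences reported here. The text names every member, Mef2d, and in each of 11 lists the genes with the 2 lowest and 2 highest differences past the filter. Other genes (the leukocyte markers under the filter, Cd79a, Pecam1, and receptors found by gene identifier) were named after their values were seen. Of 190 listed symbols, 169 matched directly, 3 through a newer symbol or synonym and 18 not. The members and lists were chosen with earlier results of these data known. Alternatives covered scaling, level filter, threshold, summary and gene naming. Chemokine protein sequences were not used here.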

Additional observations from a re-analysis of the deposited data

How the results depend on the processing

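Under the other scalings (centring each array on its median, quantile normalization, and removing a loess trend with level) Ccl20 and Cxcl12 remained the 2 members past 1.5-fold, and no value of a single member moved by more than 0.05. Of the 50 members, 5 (Ccl6, Ccl11, Ccl17, Ccr3 and Ccr10) changed sign under at least 1 scaling, and the largest deposited difference among them was 0.021 in size. The receptor median was 0.019 after quantile normalization and 0.008 after the loess. The level filter mattered most. Without it, 50 members entered, 32 were below 0, the ligand median was -0.084, and Cxcl13 joined the genes past 1.5-fold. With the filter raised to the median of all named genes, 8 members were left, and Ccl20 and Cxcl12 fall under that level. Of the 8, 0 were 1.5-fold lower and 3 were below 0. The medians were 0.027 for members and 0.025 for ligands, and the only receptor left, Cxcr7, stood at 0.057. The negative family median was thus not present among the brighter members. Of all 8296 genes past the raised filter, 30 were at least 1.5-fold lower and 49.4% were below 0. At 2-fold, 1 member (Ccl20) was lower, where 5 of all 11614 genes were. At 1.3-fold, Ccl7 joined Ccl20 and Cxcl12, where 287 of all 11614 genes were lower. Means in place of medians gave -0.15 for members and -0.20 for ligands. Naming probe sets through gene identifiers gave 52 members, with the same 2 past 1.5-fold. Of 286 values compared, 271 stayed within 0.05 on the log2 scale or, for counts, within 1.5 times. No paired analysis was possible because there is 1 array per condition, and no replicate could be left out. Low signal limits the members near the filter.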
